A study of Homo sapiens with 8 samples.

Results

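Condensin and cohesin are ring-shaped protein machines that fold chromosomes and hold sister chromatids together. The mRNAs of 10 of their subunits are described here after knockdown of CDCA8 in prostate cancer cells: SMC2, SMC4, NCAPD2, NCAPG, NCAPH, NCAPD3 and NCAPG2 of condensin, and SMC1A, SMC3 and RAD21 of cohesin. The members were taken by name from the RNA table, and all 10 were found among its 18892 gene rows. All 10 also passed the filter on low values, which kept 11833 genes with at least 1 RPM (deposited reads scaled to a common library total) in at least 2 of 4 libraries. The cells were C4-2, an established line of human prostate cancer that descends from LNCaP and is used as a model of androgen-independent growth. In one group, 2 libraries came from C4-2 cells with a short hairpin RNA against CDCA8 (shCDCA8), and they were set against 2 libraries of C4-2 cells with a control hairpin (shCTRL). Both groups thus carried a hairpin. The sample titles name no second hairpin against CDCA8 and no rescue, and the labels give neither the time after introduction of the hairpin nor whether the cells were a clone. The series also holds 2 shEZH2 and 2 shCTRL small RNA libraries, which were not used here.

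Each complex is built on a pair of SMC proteins, long coiled-coil ATPases that meet at a hinge and are closed into a ring by a kleisin subunit. SMC2 and SMC4 form the core of both condensins. Condensin I adds the kleisin NCAPH and the HEAT-repeat subunits NCAPD2 and NCAPG, and gains access to chromosomes after the nuclear envelope breaks down. Condensin II adds the kleisin NCAPH2 and the HEAT-repeat subunits NCAPD3 and NCAPG2, and is nuclear in interphase as well. Cohesin is formed by SMC1A, SMC3 and the kleisin RAD21 with a STAG subunit, holds sister chromatids together until anaphase and extrudes chromatin loops in interphase. CDCA8 encodes borealin of the chromosomal passenger complex, which works on the same mitotic chromosomes.

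The promoters of the 5 members with the largest changes are shown because they moved in opposite directions within a complex: NCAPD2, NCAPH and SMC1A were lower in shCDCA8, and SMC4 and SMC3 were higher. The windows are from RefSeq (GRCh38.p14), run from 250 bases before to 50 bases after the annotated start, and are printed 5′ to 3′ on the gene's own strand. Capitals mark letters found by a search of both strands for the CCAAT box (CCAAT), the cell cycle gene homology region or CHR (TTTGAA or TTCGAA), and E2F-type letters (TTCCCGC, TTTGGCGC or TTTCGCGC). A match on the other strand appears as its reverse complement (ATTGG or TTCAAA). The NCAPD2 window is chr12:6493852-6494151 (plus strand), that of NCAPH chr2:96335516-96335815 (plus), that of SMC1A chrX:53422679-53422978 (minus), that of SMC4 chr3:160399400-160399699 (plus) and that of SMC3 chr10:110567445-110567744 (plus).
NCAPD2: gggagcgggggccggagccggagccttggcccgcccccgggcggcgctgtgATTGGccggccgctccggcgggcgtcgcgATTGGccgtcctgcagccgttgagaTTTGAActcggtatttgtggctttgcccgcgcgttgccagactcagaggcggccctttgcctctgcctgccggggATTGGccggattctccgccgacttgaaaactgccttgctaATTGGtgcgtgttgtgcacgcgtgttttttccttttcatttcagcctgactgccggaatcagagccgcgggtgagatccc
NCAPH: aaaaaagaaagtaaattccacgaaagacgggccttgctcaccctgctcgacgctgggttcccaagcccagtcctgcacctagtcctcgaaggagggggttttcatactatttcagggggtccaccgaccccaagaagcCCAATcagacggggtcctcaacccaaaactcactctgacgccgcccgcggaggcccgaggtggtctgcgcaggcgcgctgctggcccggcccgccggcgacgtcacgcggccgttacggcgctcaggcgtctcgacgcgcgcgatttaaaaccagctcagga
SMC1A: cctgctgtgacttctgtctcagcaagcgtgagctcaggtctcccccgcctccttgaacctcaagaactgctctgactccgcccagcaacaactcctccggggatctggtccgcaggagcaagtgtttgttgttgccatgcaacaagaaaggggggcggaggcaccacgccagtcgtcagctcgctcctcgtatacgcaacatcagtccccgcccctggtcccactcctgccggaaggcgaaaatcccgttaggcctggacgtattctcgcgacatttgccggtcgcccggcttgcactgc
SMC4: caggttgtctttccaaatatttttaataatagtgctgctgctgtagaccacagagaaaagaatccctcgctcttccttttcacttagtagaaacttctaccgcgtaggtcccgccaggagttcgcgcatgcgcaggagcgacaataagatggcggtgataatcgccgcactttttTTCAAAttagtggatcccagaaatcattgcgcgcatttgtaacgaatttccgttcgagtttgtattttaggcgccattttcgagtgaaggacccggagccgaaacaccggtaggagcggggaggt
SMC3: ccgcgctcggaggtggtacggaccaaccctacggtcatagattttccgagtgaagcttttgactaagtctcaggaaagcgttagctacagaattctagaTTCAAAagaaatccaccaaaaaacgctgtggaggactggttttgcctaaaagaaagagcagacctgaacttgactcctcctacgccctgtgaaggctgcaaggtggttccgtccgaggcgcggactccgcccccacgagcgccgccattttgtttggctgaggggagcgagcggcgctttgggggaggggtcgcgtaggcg

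NCAPD2 carried 4 CCAAT boxes, all on the other strand, whose last bases lay at -195, -166, -66 and -26 from the start, and 1 CHR match. NCAPH carried 1 CCAAT box, at -112 to -108, and no CHR match in this window. SMC4 and SMC3 carried 1 CHR match each, at -75 to -70 and -151 to -146, and no CCAAT box, and SMC1A carried none of the searched letters. Promoter windows of 9 of the 10 members were searched, and RAD21 was left out of the search. Of these 9, 2 held a CCAAT box, 6 a CHR match and 1, NCAPG, held E2F-type letters, where 34.6%, 16.4% and 7.56% of 35116 windows of the same length did. No match of one motif overlapped a match of another in the member windows. CHR letters were present in NCAPD2, which fell, in SMC2, SMC4 and SMC3, which rose, and in NCAPG and NCAPG2, which were not called. They were absent from NCAPH, NCAPD3 and SMC1A, which fell. A match is a description of the letters, and no binding was measured.

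The hairpin's target was checked first. CDCA8 stood at 3.98 and 3.94 RPM in the shCDCA8 libraries, against 14.2 and 16.5 RPM in the shCTRL libraries. The RPM divisors lay between 46709612 and 55289855 reads, of which 33.3% and 34.2% fell in the gene rows in shCDCA8, against 41.1% and 43.6% in shCTRL. The median log2 fold change over all kept genes was -0.27, so changes are also given after median-ratio scaling, which removes this shift. Of the genes called, 28.3% were higher in shCDCA8 with the RPM as deposited and 49.7% after median-ratio scaling. The 9 luminal prostate markers summed to 1930 and 2040 RPM in shCDCA8 and to 3760 and 3910 RPM in shCTRL. KLK3, the highest, stood at 364 and 438 RPM in shCDCA8 against 1450 and 1480 RPM in shCTRL. With the RPM as deposited 6 of the 9 were called lower and 2 higher. KRT8 and KRT18, which were higher, and FOLH1, which was not called, were named after their values were seen. The 6 fibroblast markers summed to 3.85 and 4.30 RPM in shCDCA8 and to 9.83 and 12.2 RPM in shCTRL, and COL1A1 was the only one of them to reach 1 RPM. The 5 leukocyte and endothelial markers in the table summed to 1.42 and 1.90 RPM in shCDCA8 and to 5.33 and 6.62 RPM in shCTRL, and VWF was the only one of them to reach 1 RPM. The basal markers KRT14 and KRT15 summed to 2.03 and 2.35 RPM in shCDCA8 and to 2.53 and 2.61 RPM in shCTRL. The part of these differences in the results on the members was not tested.

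The subunits of one complex did not move together. Of the 10 members, 4 rose after CDCA8 knockdown (SMC2, SMC4, SMC3 and RAD21), 4 fell (NCAPD2, NCAPH, NCAPD3 and SMC1A), and NCAPG and NCAPG2 did not pass the test. Genes were called where limma on log2(RPM + 1), two-sided, gave a p under 0.05 after Benjamini-Hochberg adjustment across the 11833 kept genes. Across all kept genes 66.4% were called, 47.6% lower and 18.8% higher, so 8 of 10 called members lie near that share. Of the members, 5 changed at least 2-fold on the log2(RPM + 1) scale, where 17.8% of kept genes did. The median log2 fold change over the members was -0.25, close to that of the table, and hides a range from -1.75 (NCAPD2) to 1.32 (SMC3). The groups did not overlap for any of the 10 members, and did not overlap for 83.2% of kept genes. After median-ratio scaling 4 members rose, the same genes as before, and 3 fell (7 of 10 called, against 66.8% of kept genes, of which 33.2% were higher and 33.6% lower). In these bulk libraries fewer cells in a cell cycle phase and less RNA per cell cannot be told apart.

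**Figure D1:**
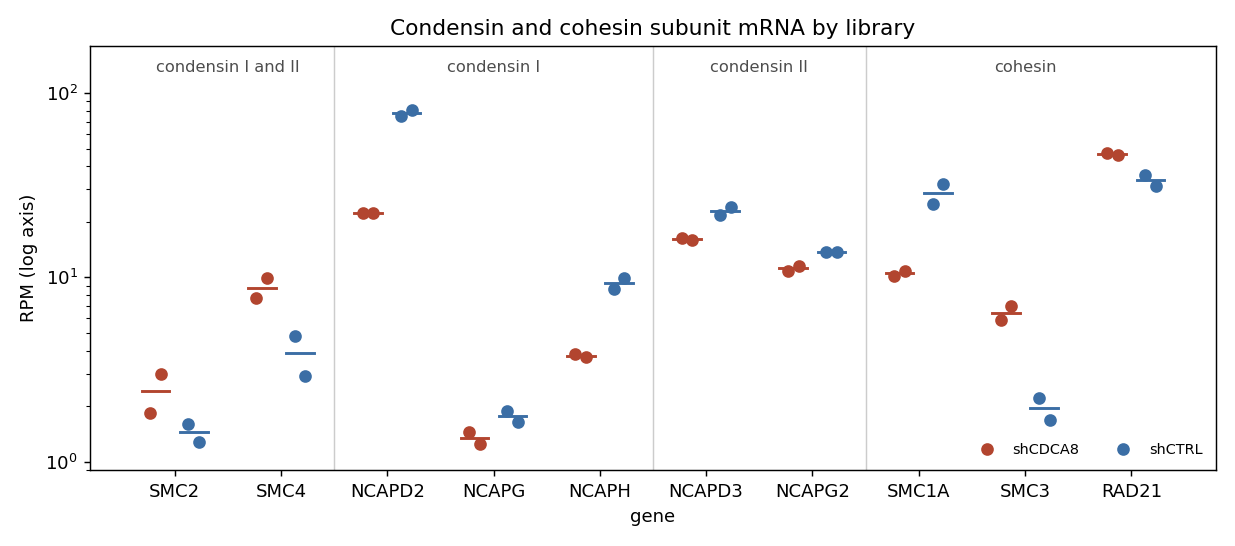
RPM (log axis) of the 10 subunit mRNAs in the 2 shCDCA8 libraries (red, left of each pair) and the 2 shCTRL libraries (blue, right), with a line at each group's mean. NCAPD2 stood at 22.4 and 22.4 RPM in shCDCA8 below 74.8 and 80.6 RPM in shCTRL, and SMC3 at 5.84 and 6.98 RPM in shCDCA8 above 2.23 and 1.69 RPM in shCTRL. RPM is not divided by transcript length, so heights are compared within a gene only.

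In the condensin core, both SMC subunits were higher after knockdown. SMC4, the ATPase that pairs with SMC2, stood at 7.69 and 9.88 RPM in shCDCA8 against 4.84 and 2.93 RPM in shCTRL. Both shCDCA8 libraries lay above both shCTRL libraries, although the shCTRL libraries themselves were well apart. The log2 fold change was 1.02 ± 0.188 (SE, n = 2 each, limma adjusted p = 0.000483). SMC2 was sparse, at 1.84 and 2.98 RPM in shCDCA8 against 1.61 and 1.28 RPM in shCTRL, which were 96 and 165 reads against 86 and 60 reads. Its lower shCDCA8 library was just above the higher shCTRL library, and the log2 fold change was 0.46 ± 0.167 (limma adjusted p = 0.0283). The SMC2 call was lost without shCDCA8 replicate 2 (0.22, limma adjusted p = 0.334) and without shCTRL replicate 2 (0.36, limma adjusted p = 0.0606), and with no filter on low values (limma adjusted p = 0.0983).

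Among the subunits particular to condensin I, 2 of 3 fell. NCAPD2, the HEAT-repeat subunit that helps bring condensin I to chromosomes, stood at 22.4 RPM in both shCDCA8 libraries against 74.8 and 80.6 RPM in shCTRL. It averaged 3.47-fold lower in shCDCA8, and its log2 fold change of -1.75 ± 0.105 (SE, n = 2 each, limma adjusted p = 1.17e-07) was lower than that of all but 2.59% of kept genes. NCAPH, the kleisin that closes the ring, stood at 3.83 and 3.69 RPM in shCDCA8 against 8.70 and 9.93 RPM in shCTRL. The shCDCA8 values were tightly grouped and lay below both shCTRL values, with a log2 fold change of -1.11 ± 0.136 (limma adjusted p = 2.16e-05). NCAPG, the other HEAT-repeat subunit, stood at 1.45 and 1.25 RPM in shCDCA8 against 1.88 and 1.65 RPM in shCTRL, from 76 and 69 reads against 100 and 77 reads. Its log2 fold change was -0.23 ± 0.130 (limma adjusted p = 0.134), with a 95% interval from -0.52 to 0.05 that is not adjusted for multiple testing. At this level the pseudocount limits how far NCAPG could fall on this scale, so its value is not set beside those of NCAPD2 and NCAPH. The direction of NCAPG was not stable, since it stood at 0.15 under quantile normalization.

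Of the members particular to condensin II, 1 of 2 fell, and that call rested on the scaling. NCAPD3, the counterpart of NCAPD2, stood at 16.4 and 16.0 RPM in shCDCA8 against 21.9 and 24.0 RPM in shCTRL. It fell by 0.48 ± 0.118 on the log2 scale (SE, n = 2 each, limma adjusted p = 0.00363), and it was not called after median-ratio scaling (-0.18, limma adjusted p = 0.15). NCAPG2, the counterpart of NCAPG, stood at 10.9 and 11.5 RPM in shCDCA8 against 13.8 and 13.7 RPM in shCTRL. Its log2 fold change of -0.27 ± 0.123 (limma adjusted p = 0.0687) was within 0.01 of the median of the table and stood at 0.02 after median-ratio scaling. NCAPH2, the condensin II kleisin, stood at 15.2 and 17.7 RPM in shCDCA8 against 16.8 and 19.1 RPM in shCTRL and was not called (-0.12, limma adjusted p = 0.43). Its groups overlapped.

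Of the 3 cohesin members 2 rose and 1 fell, and here the SMC pair itself divided. SMC1A, the ATPase that pairs with SMC3, stood at 10.2 and 10.9 RPM in shCDCA8 against 25.1 and 32.1 RPM in shCTRL. It averaged 2.71-fold lower in shCDCA8 (log2 fold change -1.35 ± 0.137, SE, n = 2 each, limma adjusted p = 5.36e-06). SMC3, its partner and the subunit acetylated when cohesion is established, stood at 5.84 and 6.98 RPM in shCDCA8 against 2.23 and 1.69 RPM in shCTRL, from 305 and 386 reads against 119 and 79 reads. The mean was 3.27-fold that of shCTRL, and the log2 fold change of 1.32 ± 0.149 (limma adjusted p = 1.19e-05) was above that of 98.9% of kept genes. RAD21, the kleisin that separase cuts at anaphase, stood at 47.3 and 45.9 RPM in shCDCA8 against 35.9 and 31.2 RPM in shCTRL. The RAD21 rise was smaller, at 0.47 ± 0.112 (limma adjusted p = 0.00289), and the shCDCA8 libraries lay closer together than the shCTRL libraries. All 4 members that rose stood lower in shCTRL replicate 2 than in shCTRL replicate 1, as did STAG2, NIPBL, PDS5B, TOP2B and SMCHD1 described below, so the shCTRL libraries differed among themselves in these genes. The 4 members that fell, NCAPD2, NCAPH, NCAPD3 and SMC1A, stood higher in shCTRL replicate 2 than in shCTRL replicate 1. Transcript length, base composition and RNA quality were not analysed here, and their part in the rises and falls was not tested. After median-ratio scaling the log2 fold changes were -1.05 for SMC1A, 1.56 for SMC3 and 0.77 for RAD21, all called.

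**Figure D2:**
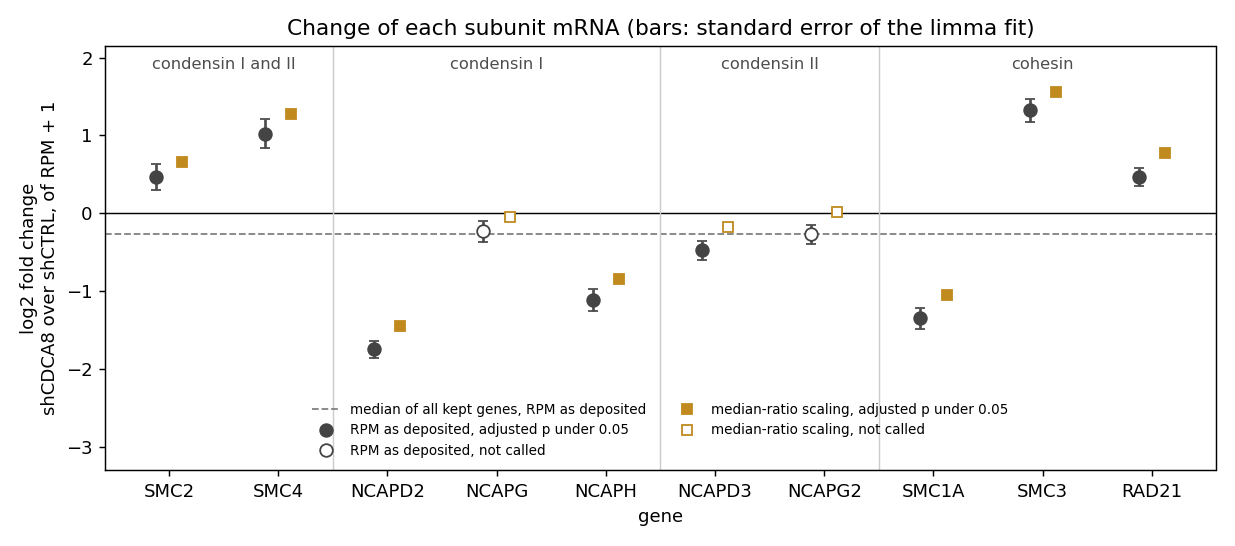
Log2 fold change of RPM + 1, shCDCA8 over shCTRL, for each subunit mRNA as deposited (circles, with the standard error of the limma fit) and after median-ratio scaling (squares), open where the adjusted p was not under 0.05. NCAPD2 (-1.75) is the lowest and SMC3 (1.32) the highest circle, and the dashed line marks the median of all kept genes at -0.27.

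Ratios between partner subunits within a library do not move with a factor applied to the whole library, apart from the effect of the pseudocount. The log2 ratio of SMC3 to SMC1A was -0.72 and -0.57 in shCDCA8 against -3.02 and -3.62 in shCTRL. That is a difference of 2.67, or 6.38-fold in the ratio of RPM + 1, and it lay between 2.37 and 2.97 with any single library left out. Its size depended on the pseudocount, at 3.08 with 0.1 and 1.82 with 5 added to the RPM. The log2 ratio of NCAPD2 to NCAPD3 was 0.43 and 0.46 in shCDCA8 against 1.73 and 1.71 in shCTRL, a difference of -1.27. The mRNA of this condensin I subunit was thus lower relative to that of its condensin II counterpart, by many times the spread between libraries. The log2 ratio of NCAPG to NCAPG2, the other pair of counterparts, was -2.28 and -2.48 in shCDCA8 against -2.36 and -2.47 in shCTRL. These groups overlapped, with a difference of 0.04 (exact permutation p = 1, two-sided). The difference turned to -0.07 with 0.1 added to the RPM. NCAPG stood between 1.25 and 1.88 RPM, where the pseudocount limits a fall, so this difference is not set beside that of NCAPD2 to NCAPD3.

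The log2 ratio of SMC4 to SMC2 was 1.62 and 1.45 in shCDCA8 against 1.16 and 0.78 in shCTRL, a difference of 0.56. The mean log2(RPM + 1) of the 7 condensin members minus that of the 3 cohesin members was -1.03 and -1.02 in shCDCA8 against -0.53 and -0.56 in shCTRL, a difference of -0.49. The groups did not overlap for 4 of these 5 ratios, and each of the 4 reached an exact permutation p of 0.333, the smallest that 2 against 2 libraries allow, so none can pass a threshold of 0.05. RPM is not divided by length, so a ratio is read only as a difference between groups and not as a stoichiometry.

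**Figure D3:**
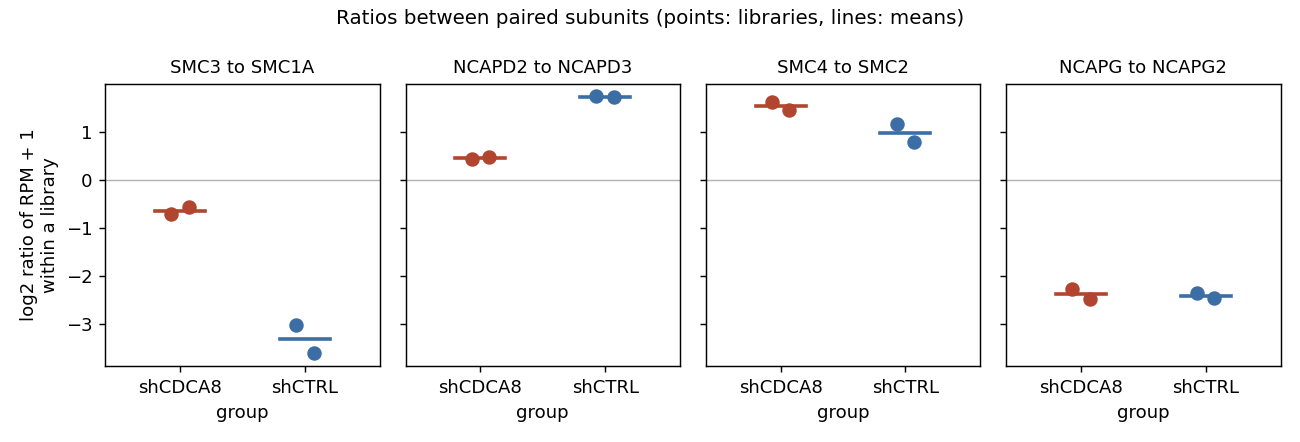
Log2 ratio of RPM + 1 between partner subunits within each library, for 2 shCDCA8 libraries (left, red) and 2 shCTRL libraries (right, blue), with a line at each group's mean. The SMC3 to SMC1A panel has means of -0.65 in shCDCA8 and -3.32 in shCTRL, whereas the points of the NCAPG to NCAPG2 panel overlap. NCAPG stood between 1.25 and 1.88 RPM, where the pseudocount limits a fall.

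Reads of some members may be shared with other genes, since the sources used here do not say whether counting used strand. In RefSeq (GRCh38.p14), NCAPD3 overlaps VPS26B and JAM3, NCAPG overlaps LCORL, NCAPD2 overlaps SCARNA10 and RAD21 overlaps its antisense gene. VPS26B stood at 51.8 and 61.8 RPM in shCDCA8 against 94.6 and 101 RPM in shCTRL and fell like NCAPD3, by 0.78 on the log2 scale. JAM3 fell too, to 0.383 and 0.326 RPM in shCDCA8 against 1.52 and 1.69 RPM in shCTRL. LCORL stood at 1.21 and 1.45 RPM in shCDCA8 against 0.375 and 0.235 RPM in shCTRL, opposite to NCAPG. RAD21-AS1 and SCARNA10 stayed under 1 RPM in all 4 libraries. RefSeq also lists pseudogenes of SMC4, NCAPD2, NCAPG, SMC3 and RAD21, so the values of these genes are uncertain where reads cannot be assigned to 1 copy. The part of shared reads in the changes was not tested.

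The remaining subunits, which are not members, were split as well. STAG2, one of the alternative STAG subunits that bind RAD21, stood at 19.3 and 17.4 RPM in shCDCA8 against 8.85 and 5.07 RPM in shCTRL and rose by 1.32 ± 0.192 (SE, n = 2 each, limma adjusted p = 8.13e-05). Its paralogue STAG1 rose by 0.42 (5.40 and 5.46 RPM in shCDCA8 against 4.45 and 3.21 RPM in shCTRL, limma adjusted p = 0.0267). STAG3, a meiotic paralogue, was low in both groups and fell to 0.345 and 0.398 RPM in shCDCA8, against 1.50 and 1.82 RPM in shCTRL. The meiotic subunits SMC1B and REC8 never reached 1 RPM and were not tested. Of the 4 tested genes of this list 2 rose and 1 fell, also after median-ratio scaling. Among all kept genes 18.8% were higher and 47.6% lower, and after median-ratio scaling 33.2% were higher and 33.6% lower.

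Of the 10 tested genes that load, hold and release cohesin, 5 were higher and 5 lower. Across all kept genes 18.8% were higher and 47.6% lower. The median log2 fold change of the list was 0.19, against -0.27 for all kept genes. After median-ratio scaling 5 were higher and 4 lower, where 33.2% of kept genes were higher and 33.6% lower. PDS5B, a HEAT-repeat regulator bound to the ring, stood at 21.7 and 22.6 RPM in shCDCA8 against 8.03 and 6.08 RPM in shCTRL and rose by 1.53. Its paralogue PDS5A stood at 16.9 and 18.6 RPM in shCDCA8 against 10.0 and 6.40 RPM in shCTRL and rose by 1.05. CDCA5, which encodes sororin and protects cohesion after replication, fell to 9.15 and 10.8 RPM in shCDCA8, against 23.4 and 27.3 RPM in shCTRL. DDX11, a helicase of replication-coupled cohesion, fell to 5.86 and 7.52 RPM in shCDCA8, against 14.6 and 16.7 RPM in shCTRL. The loader was singled out after its values were seen. Its subunit NIPBL rose by 1.12 (3.87 and 5.53 RPM in shCDCA8 against 2.10 and 1.18 RPM in shCTRL). MAU2, the partner of NIPBL, fell by 0.68 (21.8 and 29.6 RPM in shCDCA8 against 36.1 and 47.2 RPM in shCTRL). The release factor WAPL, listed under its older symbol WAPAL and also singled out after its values were seen, stood at 11.8 and 12.6 RPM in shCDCA8 against 7.13 and 5.99 RPM in shCTRL and rose by 0.81.

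Both tested genes of cohesin cleavage fell, also after median-ratio scaling. Across all kept genes 47.6% were lower with the RPM as deposited and 33.6% after median-ratio scaling. PTTG1, which encodes securin, the inhibitor of separase, stood at 13.3 and 13.5 RPM in shCDCA8 against 36.4 and 43.3 RPM in shCTRL (log2 fold change -1.50, limma adjusted p = 1.07e-06). ESPL1, which encodes separase, stood at 3.64 and 4.41 RPM in shCDCA8 against 8.46 and 9.89 RPM in shCTRL (-1.02, limma adjusted p = 6.87e-05). The shugoshin genes, listed as SGOL1 and SGOL2, did not reach 1 RPM in any library and were not tested, at 0.440 and 0.416 RPM in shCDCA8 against 0.825 and 0.985 RPM in shCTRL for SGOL1, and at 0.651 and 0.452 RPM in shCDCA8 against 0.807 and 0.578 RPM in shCTRL for SGOL2.

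**Figure D4:**
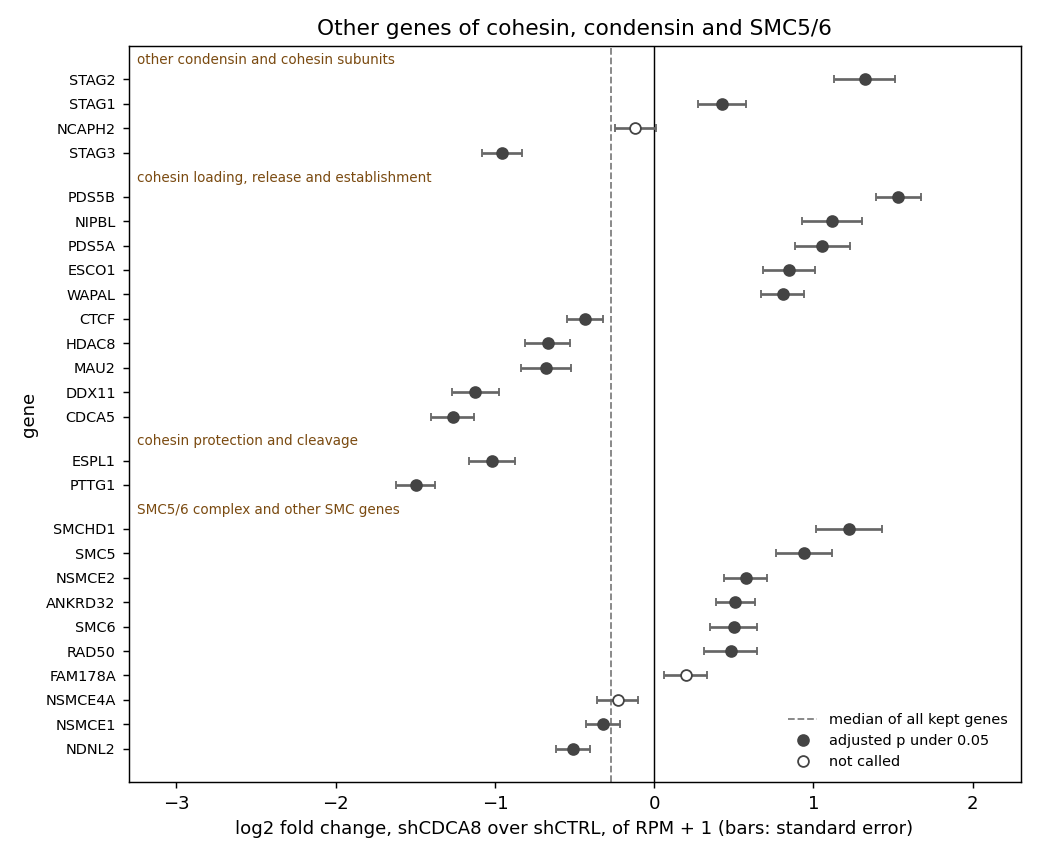
Log2 fold change of RPM + 1, shCDCA8 over shCTRL, with the standard error of the limma fit, for the tested genes of 4 lists on cohesin, condensin and the related SMC5/6 complex, filled where the adjusted p was under 0.05. Genes that load, hold or release cohesin lie on both sides of 0, from PDS5B (1.53) to CDCA5 (-1.27), both cleavage genes lie below 0, and the dashed line marks the median of all kept genes at -0.27.

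In the SMC5/6 complex, a relative of cohesin and condensin in DNA repair, and other SMC genes, 6 of 10 tested genes rose and 2 fell (median 0.49), and 7 rose and none fell after median-ratio scaling. The shares over all kept genes were 18.8% higher and 47.6% lower (median -0.27), and 33.2% higher and 33.6% lower after median-ratio scaling. SMCHD1, an SMC-hinge protein of the inactive X chromosome, stood at 7.41 and 9.30 RPM in shCDCA8 against 4.09 and 2.12 RPM in shCTRL and rose by 1.22. SMC5 rose by 0.94 and NSMCE2, a SUMO ligase of the complex, by 0.57. NSMCE3, listed as NDNL2, fell by 0.51 (24.9 and 24.5 RPM in shCDCA8 against 35.1 and 36.2 RPM in shCTRL) and was not called after median-ratio scaling (-0.21, limma adjusted p = 0.0725).

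Of the 10 listed partners of condensin on mitotic chromosomes 6 fell and 2 rose (median -0.66). These shares are near those over all kept genes (47.6% lower and 18.8% higher). After median-ratio scaling 6 fell and 3 rose, where 33.6% of kept genes were lower and 33.2% higher. PLK1, a mitotic kinase that phosphorylates condensin, fell to 12.2 and 14.1 RPM in shCDCA8, against 39.0 and 47.5 RPM in shCTRL. KIF4A, a chromokinesin that acts with condensin on the chromosome axis, fell to 3.52 and 3.17 RPM in shCDCA8, against 8.42 and 10.1 RPM in shCTRL. AURKB, the passenger complex kinase, fell by 1.41 on the log2 scale. TOP2B stood at 13.1 and 15.9 RPM in shCDCA8 against 5.91 and 3.55 RPM in shCTRL and rose by 1.46. Its paralogue TOP2A, the topoisomerase of dividing cells and named after its values were seen, fell by 0.66 (2.62 and 3.65 RPM in shCDCA8 against 5.80 and 5.16 RPM in shCTRL).

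Most tested transcripts that mark S, G2 and M phase were called lower, as were NCAPD2 and NCAPH but not SMC2, SMC4 or NCAPG. Of 19 tested genes of that list 14 fell and none rose (median -0.82), where 47.6% of kept genes were lower and 18.8% higher. After median-ratio scaling 12 fell and 2 rose, where 33.6% of kept genes were lower and 33.2% higher. The 20 genes in the table summed to 151 and 155 RPM in shCDCA8, against 298 and 334 RPM in shCTRL. CDC20 fell by 1.80, TPX2 by 1.61, CCNB2 by 1.55 and UBE2C by 1.36 on the log2 scale (the 4 with the smallest p). CDK1, CCNE2, TTK, HMMR and CENPF, named after their values were seen, were not called with the RPM as deposited. Their log2 fold changes were 0.09, 0.13, 0.07, 0.18 and -0.19. The 2 called higher after median-ratio scaling were CDK1 (0.38, limma adjusted p = 0.0481) and HMMR (0.41, limma adjusted p = 0.0344). The part of a change in cell cycle phase in the fall of NCAPD2 and NCAPH was not tested.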

How the data were processed

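PolyA RNA of 2 shCDCA8 and 2 shCTRL libraries of C4-2 cells was analysed, with groups taken from the sample titles. The deposited values are RPM, per the file headers. Of tools, TopHat, HTSeq, edgeR and cutadapt are named with the build hg19, per the submitters' processing notes, without versions, and the sources used here do not give the annotation, counting settings or divisor. All values above 0 were whole multiples of a fixed step in their library (100% within 0.01 of a whole read), so whole reads were recovered, and the count models edgeR 4.0.16 (7807 genes called) and DESeq2 1.42.0 were run on them as alternatives. The test was limma 3.58.1 (R 4.3.3) on log2(RPM + 1), with a mean-variance trend in eBayes, two-sided and Benjamini-Hochberg adjusted over the kept genes. Fold changes are on that scale and are too small for low genes. The labels do not say whether libraries came from separate cultures, so p-values measure only the spread between these libraries. Replicate libraries were not duplicates of each other (chi-square of their reads per degree of freedom 11.6 in shCDCA8 and 9.70 in shCTRL). Tested on simulated data for this comparison (11603 genes), 81.5% of 1.5-fold and 98.5% of 2-fold changes were recovered. Of 11405 genes simulated without a change, 9 were called. The simulation changed few genes, up or down, with the same dispersion for every gene and no shift of the whole table. Its rates do not carry over to these data, where 66.4% of kept genes were called.

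The members and lists were chosen with earlier results of these data known. Named genes are the members, the target, every gene of the lists of other subunits and of cleavage found in the table, up to 4 called genes with the smallest p per further list, and the 3 nearest profiles per complex. RAD21L1, KRT5, TP63, PTPRC and CDH5 were not analysed here. Alternatives were 3 other scalings, 2 pseudocounts, 2 filters, another variance model, count models, a replicate block and leaving out each library.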

Additional observations from a re-analysis of the deposited data

How the results depend on the processing

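SMC4, NCAPD2, NCAPH, SMC1A, SMC3 and RAD21 kept their direction and their call under all 16 alternatives each, with log2 fold changes from 0.64 to 1.47, -1.80 to -1.44, -1.31 to -0.71, -1.52 to -1.05, 0.71 to 2.01 and 0.37 to 0.80. NCAPD3 was not called under median-ratio scaling (-0.18), scaling to the reads in the gene rows (-0.17), quantile normalization (-0.23), edgeR with TMM (-0.19) and DESeq2 (-0.19). NCAPG2 turned to 0.0175 under median-ratio scaling, 0.032 under scaling to the reads in the gene rows, 0.0126 with edgeR and 0.0181 with DESeq2, and NCAPG to 0.15 under quantile normalization, none of them called. These settings remove the shift of the whole table. SMC2 was not called with no filter (0.46), and stood between 0.22 and 0.71 without single libraries. With a filter of at least 5 RPM SMC2 and NCAPG had no value. The ratio of NCAPG to NCAPG2 turned to -0.0693 with a pseudocount of 0.1, stood at 0.18 under quantile normalization, and ranged from -0.057 to 0.135 without single libraries. Other ratios moved but kept their direction: NCAPD2 to NCAPD3 stood at -1.20 with a pseudocount of 5, SMC3 to SMC1A at 3.08 and 1.82 with pseudocounts of 0.1 and 5, and condensin to cohesin at -0.58 and -0.32 with these pseudocounts and -0.47 under quantile normalization. The cause of these moves was not tested. Replicate numbers are shared by the groups, but the labels do not say that they mark a pairing, and the deviations of same-numbered libraries correlated at 0.313 across genes. With the replicate number as a block 9 members were called, NCAPG2 among them (-0.27, limma adjusted p = 0.0175), and 8901 genes in all. The number of genes called stayed between 5974 and 8901 over all alternatives. Depth limits SMC2 and NCAPG, which rested on 60 to 165 and 69 to 100 reads a library.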

Other observations

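Genes with the nearest profile to each complex over the 4 libraries were PAN3-AS1, TIAL1 and MACROD1 for the mean of the 7 condensin members (root mean square distance 0.0113, 0.0155 and 0.0166 in centred log2 units), and CCDC174, ASXL2 and LOC286189 for the mean of the 3 cohesin members (0.00407, 0.00754 and 0.0125). TIAL1 stood at 26.7 and 29.5 RPM in shCDCA8 against 36.7 and 35.0 RPM in shCTRL, and CCDC174 at 5.13 and 5.52 RPM in shCDCA8 against 4.75 and 4.60 RPM in shCTRL. These are profiles of a mean over members that moved in opposite directions.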
